A study of Homo sapiens with 12 samples.

Results

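The 44 genes described here copy DNA in S phase or prepare cells for it. They were chosen by symbol, as genes of origin licensing, the replication fork, deoxynucleotide supply and the E2F factors, and all 44 were found among the 60668 genes of each count table. RNA came from MOLM-13, an acute myeloid leukaemia cell line carrying the MLL-AF9 fusion gene and a FLT3 internal tandem duplication. The 4 groups each had 3 libraries from cells treated for 8 days with DMSO, with gilteritinib (a FLT3 kinase inhibitor), with MI-3454 (an inhibitor of the menin-MLL1 interaction) or with both agents, called the combination below. No dose is given in the sources used here, all cells were grown in the same serum-containing medium, and the study set each treatment against DMSO. The treatment field of replicates 2 and 3 names the menin inhibitor with another final digit than the titles do, and the titles were followed. Nothing says that the triplicates came from separate cultures, so p-values measure only the spread between these samples, which may be technical.

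Before S phase, the origin recognition complex, CDC6 and CDT1 load the ring-shaped MCM2 to MCM7 helicase onto origins. Kinases then recruit CDC45 and the GINS proteins, which turn the ring into an active helicase, and polymerases, the sliding clamp PCNA and joining enzymes copy the opened strands from deoxynucleotides made for the purpose. Many of these genes are known targets of E2F factors, which cyclin E and its kinase release from RB proteins as cells enter S phase, and proliferating leukaemia cells express them together.

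Promoter sequences are shown because E2F sites are the feature these genes are best known to share. RefSeq promoters on GRCh38.p14, from 250 bases before to 50 bases after each start, were found for 40 of the 44 genes. A match was TTTCCCGC, TTTGGCGC or TTTCGCGC on either strand, in any promoter listed for a gene, and 2 of these can overlap on opposite strands. Such a match was present in 22 of the 40 genes (55.0%), against 581 of the 9973 tested genes with a promoter (5.83%) and 902 of all 27305 genes with one (3.30%). TTTGAA, the core of the CHR element known from G2 and M phase genes, was present in 1 of the 40 (2.5%) and in 13.7% of the tested genes. Below are the 4 genes with a match that had the smallest adjusted p in gilteritinib against DMSO, then MCM6, which was chosen after its values were seen because it departed from its partners. Each run holds 190 bases before and 10 bases after the start, written 5′ to 3′ on the gene's strand, with the matches in capitals.
E2F2 (chr1:23531224-23531423, minus strand): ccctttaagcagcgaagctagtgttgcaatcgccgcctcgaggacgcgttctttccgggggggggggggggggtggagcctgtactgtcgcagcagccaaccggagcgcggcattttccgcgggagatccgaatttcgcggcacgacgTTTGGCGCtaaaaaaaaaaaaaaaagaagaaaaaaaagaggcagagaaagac
GINS2 (chr16:85688945-85689144, minus strand): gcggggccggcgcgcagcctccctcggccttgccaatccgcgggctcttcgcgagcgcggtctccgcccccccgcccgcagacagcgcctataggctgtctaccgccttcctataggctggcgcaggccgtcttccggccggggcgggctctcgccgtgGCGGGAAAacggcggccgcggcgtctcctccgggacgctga
CLSPN (chr1:35769969-35770168, minus strand): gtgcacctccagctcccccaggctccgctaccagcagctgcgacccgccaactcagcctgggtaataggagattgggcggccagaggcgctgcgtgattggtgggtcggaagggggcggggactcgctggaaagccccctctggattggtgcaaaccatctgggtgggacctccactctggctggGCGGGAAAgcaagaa
MCM3 (chr6:52284733-52284932, minus strand): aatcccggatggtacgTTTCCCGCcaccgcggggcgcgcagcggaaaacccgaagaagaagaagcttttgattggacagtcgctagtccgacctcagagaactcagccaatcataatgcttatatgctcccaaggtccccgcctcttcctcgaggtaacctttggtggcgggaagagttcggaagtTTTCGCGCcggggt
MCM6 (chr2:135876434-135876633, minus strand): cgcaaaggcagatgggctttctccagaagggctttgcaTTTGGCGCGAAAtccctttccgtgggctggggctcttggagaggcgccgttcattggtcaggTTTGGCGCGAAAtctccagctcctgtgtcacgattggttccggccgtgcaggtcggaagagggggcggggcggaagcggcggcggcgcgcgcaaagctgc
GINS2 and CLSPN carry their single match within 31 bases of the start, E2F2 42 bases before it, and MCM3 has matches near both ends of the run. In MCM6 each of the 2 capital runs is a pair of overlapping matches, which gives 4 in all. A match is a description of letters and not a measured binding site.

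Each library held between 6472940 and 12051457 counts in genes. All 44 genes passed the filter on low counts, as did 13972 genes in all. The myeloid markers summed to at least 1631 raw CPM (counts scaled to a common library total, without TMM) in every library, the defining erythroid markers were at 0, and T cell, B cell and epithelial markers summed to 3.28 CPM or less. The fibroblast and endothelial list was carried by PECAM1, an adhesion molecule that myeloid cells also express, and its values are given beside the combination. Libraries stood apart in 3 ways. Mitochondrial genes took 2.84% of counts in gilteritinib 2 and 0.77% to 1.36% in the other 11. In each group the library with the most RN7SL1, a small cytoplasmic RNA (DMSO 2 at 4.27%, gilteritinib 2 at 2.88%, MI-3454 3 at 4.56% and combination 1 at 1.66% of counts), tended to deviate together with its counterparts (pairwise r of 0.21 to 0.51 over the tested genes), and counts are given below also without these 4. Uniquely placed reads outside annotated exons made up 28.5% to 36.5% in the combination libraries and 15.6% to 25.5% in the other 9.

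With gilteritinib the replication genes were higher than with DMSO, with MI-3454 alone they stood near DMSO, and with the combination they were lower. In edgeR's quasi-likelihood test with Benjamini-Hochberg adjustment over all 13972 genes, called at an adjusted p under 0.05, 21 of the 44 rose with gilteritinib and 0 fell, where 6.92% of all tested genes rose and 8.18% fell. Their median log2 change was 0.32, against 0.00 over all tested genes. In 30 of the 44 every gilteritinib library stood above every DMSO library, as in 17.1% of all tested genes. With MI-3454, 1 rose and 1 fell (10.1% and 8.95% of all tested genes), with a median of 0.02. With the combination, 2 rose and 25 fell (29.2% and 28.4% of all tested genes), with a median of -0.32. These 3 comparisons share the DMSO libraries and are not independent. The gilteritinib group had the highest mean of the 4 groups for 39 of the 44 genes, and the combination had the lowest for 40. In these bulk libraries, fewer cells in S phase and less of these RNAs in each cell cannot be told apart.

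**Figure D1:**
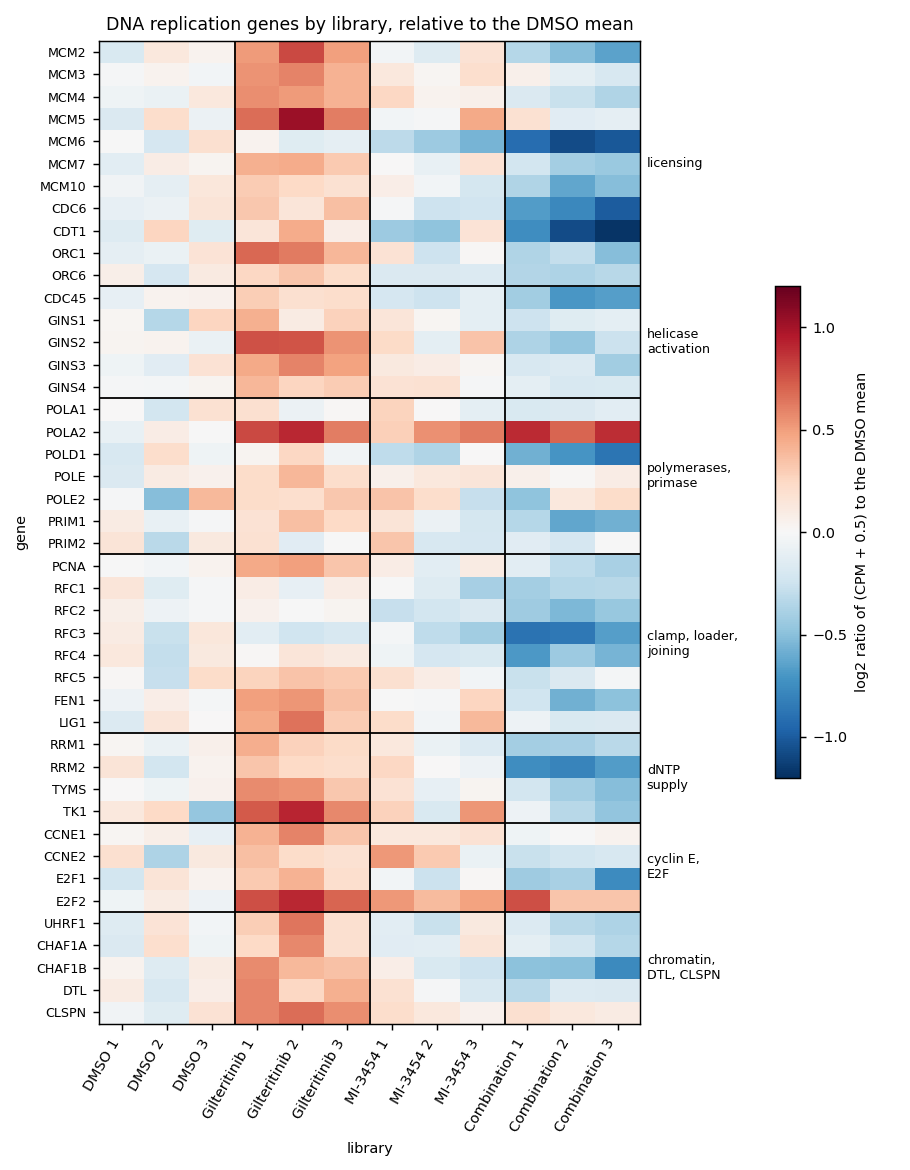
Each row is a replication gene, grouped by role, and each column a library. Colour gives the log2 ratio of CPM + 0.5 to the mean of the 3 DMSO libraries, red for higher and blue for lower. The gilteritinib columns are red for most genes and the combination columns blue. POLA2, E2F2, CLSPN and POLE were above the DMSO mean in every treated library.

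The same order held for whole libraries. The median gene stood 0.38, 0.39 and 0.30 above the DMSO mean (log2 ratio) in the gilteritinib libraries, at 0.12, -0.08 and 0.01 with MI-3454, and at -0.26, -0.33 and -0.37 with the combination, so that no gilteritinib or combination library overlapped the DMSO libraries, which lay between -0.06 and 0.05. As a share of all counts in genes, the 44 genes took 0.386% ± 0.023 (SD, n = 3) with DMSO, 0.491% ± 0.018 with gilteritinib, 0.387% ± 0.015 with MI-3454 and 0.325% ± 0.009 with the combination. Per length, PCNA had the highest DMSO level, 138 CPM per kb of exon, followed by MCM7 at 79.7 and TYMS at 57.2. POLA2 had the lowest, 0.83 CPM per kb.

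The gilteritinib count rests on the libraries used. It was 10 without gilteritinib 1, 11 without DMSO 1 and 14 without gilteritinib 2, the library with the high mitochondrial share, and 10 of the 21 genes were called in each of the 6 fits that left out a library: MCM2, MCM3, MCM5, ORC1, GINS2, POLA2, FEN1, TK1, E2F2 and CLSPN. With the replicate number as a block, 34 rose: the 21 and MCM10, CDC6, CDT1, ORC6, CDC45, GINS1, POLE, RFC5, RRM2, CCNE2, E2F1, UHRF1 and CHAF1A. For these 13 the statements below that they did not pass with gilteritinib hold for the main fit, the edgeR test above without the block. Other alternatives called some of the 13 too. Whether equal replicate numbers mark pairs is uncertain. Without the 4 libraries highest in RN7SL1, 28 rose and 1, RFC3, fell (-0.27 on the log2 scale), and RFC3 also fell without DMSO 2. Scaling to total counts gave 15. No called gene changed direction in any of these.

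**Figure D2:**
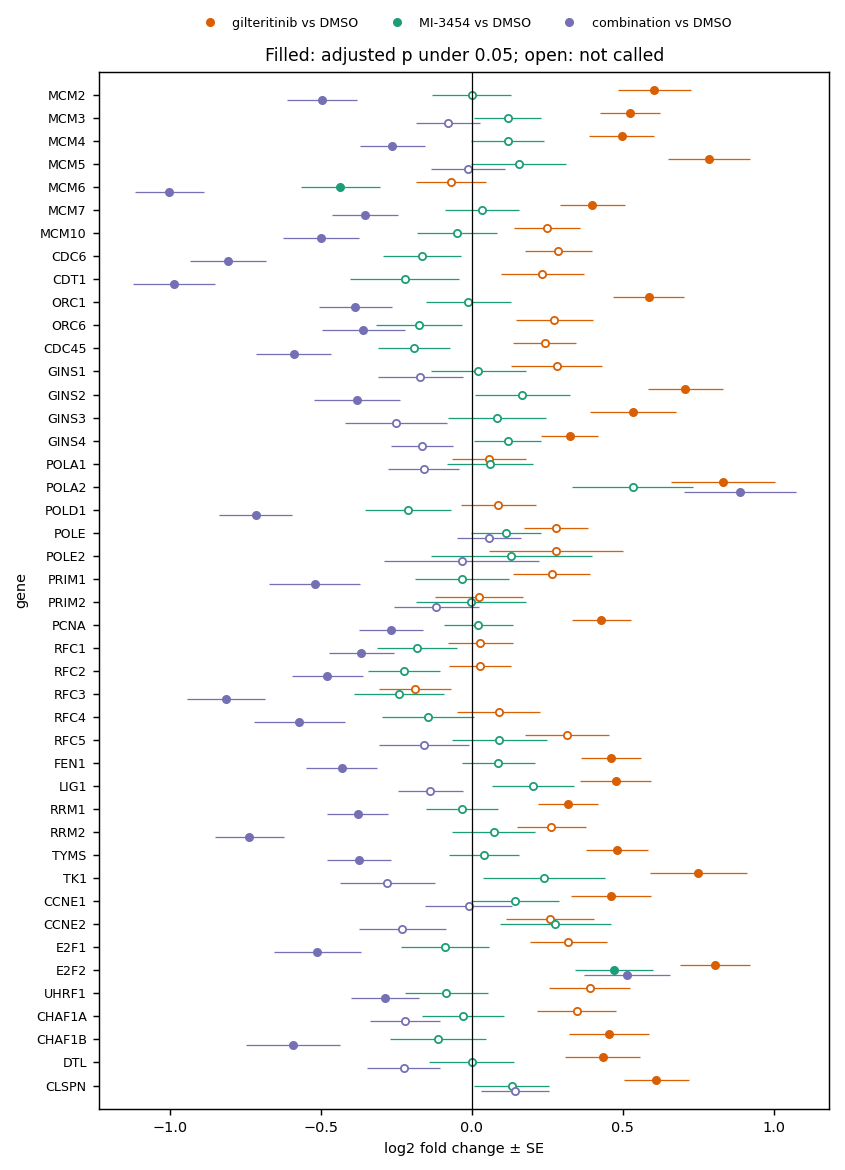
Points give the log2 fold change against DMSO of each replication gene and bars its SE, for gilteritinib (orange), MI-3454 (green) and the combination (purple), filled where the adjusted p was under 0.05. Orange points lie right of 0 except for MCM6 and RFC3, and purple points lie left of 0 except for POLA2, E2F2, CLSPN and POLE.

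Of the 11 licensing genes 6 rose with gilteritinib (6.92% of all tested genes), 1 fell with MI-3454 (8.95%) and 9 fell with the combination (28.4%). Within the MCM2 to MCM7 ring, 5 of the 6 subunits rose with gilteritinib and 1, MCM6, did not. MCM2 stood at 158, 196 and 186 CPM in the DMSO libraries, 256, 313 and 253 with gilteritinib, 175, 161 and 203 with MI-3454 and 141, 126 and 115 with the combination. Its gilteritinib libraries lay above and its combination libraries below all DMSO libraries, with log2 changes of 0.61 ± 0.12 (SE, adjusted p = 0.00581) and -0.50 ± 0.12 (adjusted p = 0.00159). For MCM3 the levels were 191, 198 and 188 CPM in the DMSO libraries, 280.3, 292 and 258 with gilteritinib, 211, 196 and 221 with MI-3454 and 201, 177 and 168 with the combination. The gilteritinib libraries again stood alone at the top (0.52 ± 0.10, adjusted p = 0.00392), whereas the combination overlapped DMSO (-0.08 ± 0.11, adjusted p = 0.54).

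MCM4, the ring subunit with the highest DMSO level in CPM, was at 355, 348 and 402 CPM in the DMSO libraries, 542, 524 and 493 with gilteritinib, 438, 378 and 384 with MI-3454 and 326, 307 and 287 with the combination. It rose by 0.50 ± 0.11 with gilteritinib (adjusted p = 0.00867), a call lost without gilteritinib 1 (adjusted p = 0.0554) or DMSO 1 (0.0521). The combination libraries lay just under the DMSO libraries (-0.26 ± 0.11, adjusted p = 0.0459), a call held in 1 of the 6 fits that left out a library, with adjusted p up to 0.177. MCM5 showed the largest rise of the ring, 0.79 ± 0.14 (adjusted p = 0.00221), with 130.2, 169.7 and 139.8 CPM in the DMSO libraries, 234, 300.0 and 224 with gilteritinib, 143, 145 and 202 with MI-3454 and 166, 133 and 136 with the combination. Gilteritinib 2 was the highest MCM5 library, and the MI-3454 and combination libraries overlapped DMSO. MCM7 read 319.9, 371 and 358 CPM in the DMSO libraries, 471, 477 and 435 with gilteritinib, 350.0, 329 and 395 with MI-3454 and 300.3, 263 and 257 with the combination. It rose by 0.40 ± 0.11 with gilteritinib (adjusted p = 0.0261, called in 1 of 6 fits without a library, up to 0.131) and fell with the combination (-0.35 ± 0.11, adjusted p = 0.0113), a call lost without combination 2 (0.0782) or 3 (0.0633).

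MCM6 followed another course. It measured 168, 147 and 193 CPM in the DMSO libraries, 174, 153 and 157 with gilteritinib, 136, 125 and 115 with MI-3454 and 89.6, 80.4 and 83.5 with the combination. The gilteritinib libraries overlapped DMSO (-0.07 ± 0.12, adjusted p = 0.74), the MI-3454 libraries lay below DMSO, and the combination libraries lay below all others. With MI-3454 alone it was the 1 replication gene that fell (-0.44 ± 0.13, adjusted p = 0.0362), and that call was kept without DMSO 2 and lost without each of the other 5 libraries (adjusted p 0.0614 to 0.163). In the combination it fell by 1.002 ± 0.12 on the log2 scale (adjusted p = 1.47e-06), the largest of the 25 falls against DMSO. Per kb of exon, MCM6 was at 0.90, 0.71 and 0.95 times the mean of the other 5 subunits in the DMSO libraries, 0.61, 0.50 and 0.59 with gilteritinib, 0.65, 0.64 and 0.51 with MI-3454 and 0.49, 0.50 and 0.54 with the combination. Every treated library thus had less MCM6 relative to its partners than every DMSO library, a ratio given as a description without a test.

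**Figure D3:**
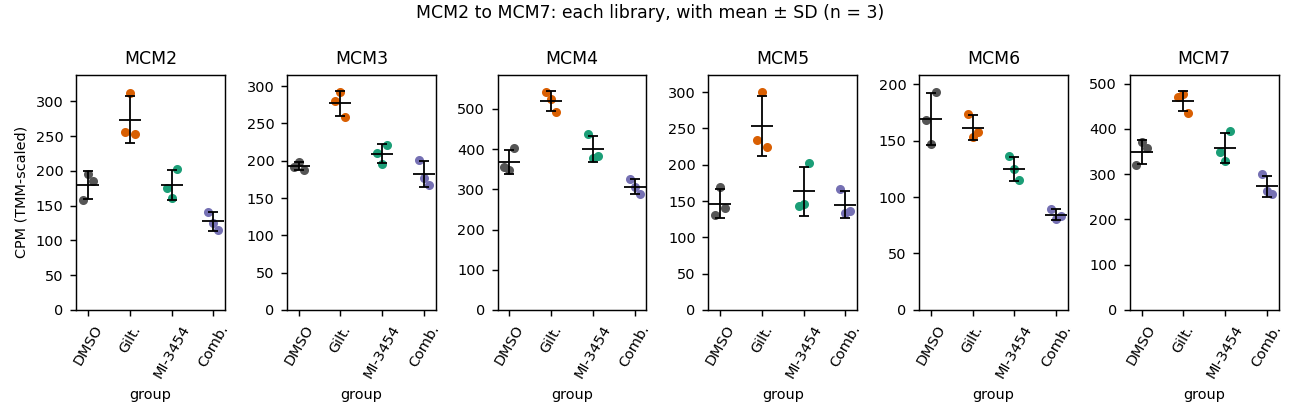
Each panel shows 1 subunit of the replicative helicase in TMM-scaled CPM, with a point per library and the mean ± SD of the 3 libraries in each group. Gilteritinib is the highest group for MCM2, MCM3, MCM4, MCM5 and MCM7, and MCM6 is lowest with the combination and overlaps DMSO with gilteritinib.

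The loading factors CDT1 and CDC6 were among the 5 largest changes in the combination. CDT1, which brings the ring to origins and is destroyed once S phase starts, was at 95.9, 128 and 96.6 CPM in the DMSO libraries, 118, 146 and 113 with gilteritinib, 78.9, 76.1 and 119 with MI-3454 and 63.3, 50.5 and 47.0 with the combination. All combination libraries lay below all others, a change of -0.99 ± 0.14 (adjusted p = 1.14e-05), and the 2 lower MI-3454 libraries lay below DMSO while the other lay within its range. CDC6, the loading ATPase, read 45.0, 46.1 and 54.0 CPM in the DMSO libraries, 60.9, 53.7 and 62.2 with gilteritinib, 47.8, 40.6 and 41.1 with MI-3454 and 30.3, 28.1 and 24.0 with the combination. Its change of -0.81 ± 0.13 (adjusted p = 3.99e-05) again separated the combination from every other library. Neither gene passed with gilteritinib in the main fit (0.23 and 0.29 for CDT1 and CDC6). Both passed with the replicate block (adjusted p = 0.00832 and 0.00431) and without the 4 libraries highest in RN7SL1 (0.0101 and 0.0142). CDT1 also passed without DMSO 2 (0.0214). ORC1, a subunit of the origin recognition complex, rose by 0.59 ± 0.12 with gilteritinib and fell by 0.39 ± 0.12 with the combination (adjusted p = 0.012, lost without combination 3 or DMSO 3, up to 0.0664). MCM10, which helps start the helicase, fell with the combination (-0.50 ± 0.12, adjusted p = 0.0026), as did ORC6 (-0.36 ± 0.14, adjusted p = 0.0332, called in 1 of 6 fits without a library).

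Among the 5 genes that activate the helicase, 3 rose with gilteritinib (6.92% of all tested genes), 0 passed with MI-3454 and 2 fell with the combination (28.4%). The 2 falls in 5 genes are too few to set against that share. GINS2 measured 17.2, 17.3 and 15.8 CPM in the DMSO libraries, 28.8, 28.7 and 24.6 with gilteritinib, 19.8, 15.4 and 21.3 with MI-3454 and 12.9, 11.96 and 13.9 with the combination. Gilteritinib placed it 0.71 ± 0.12 above DMSO (adjusted p = 0.00224) and the combination changed it by -0.38 ± 0.14 (adjusted p = 0.0301), with no overlap in either case, the latter call being lost without combination 1, combination 2 or DMSO 1 (adjusted p up to 0.144). CDC45 was at 34.5, 38.1 and 38.2 CPM in the DMSO libraries, 45.6, 42.3 and 42.9 with gilteritinib, 32.0, 31.0 and 33.9 with MI-3454 and 27.6, 22.5 and 23.2 with the combination. Its combination libraries were below all others (-0.59 ± 0.12, adjusted p = 0.000704), and its gilteritinib libraries, though above all DMSO libraries, did not pass (0.24 ± 0.10, adjusted p = 0.142; 0.0263 with the replicate block). GINS4 stood at 63.9, 63.9 and 66.4 CPM in the DMSO libraries, 85.7, 77.5 and 80.0 with gilteritinib, 73.2, 73.4 and 64.2 with MI-3454 and 59.6, 56.5 and 57.1 with the combination. The gilteritinib libraries were the highest (0.33 ± 0.09, adjusted p = 0.0378, called in 1 of 6 fits without a library, up to 0.176) and the combination libraries the lowest, without passing (-0.16 ± 0.10, adjusted p = 0.179). GINS3 rose with gilteritinib (0.53 ± 0.14, adjusted p = 0.0255, called in 2 of 6 such fits). GINS1 passed in no main fit against DMSO. It rose with gilteritinib under the replicate block (adjusted p = 0.00711). With the combination GINS1 fell when DMSO 2 was left out (-0.32, adjusted p = 0.0127). Dropping the library richest in RN7SL1 from each group also gave a fall there (-0.28, adjusted p = 0.0267).

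Of the 7 polymerase and primase genes, 1 rose with gilteritinib (6.92% of all tested genes), 0 passed with MI-3454, and 1 rose and 2 fell with the combination (29.2% and 28.4%). The falls were near their share, and 1 rise in 7 genes is too few to set against either share of rises. POLA2, the accessory subunit of the priming polymerase, was at 4.46, 5.13 and 4.75 CPM in the DMSO libraries, 8.61, 9.36 and 7.60 with gilteritinib, 5.92, 7.21 and 7.61 with MI-3454 and 9.30, 8.05 and 9.24 with the combination. All 9 treated libraries exceeded all DMSO libraries, by 0.83 ± 0.17 with gilteritinib (adjusted p = 0.00648), 0.53 ± 0.20 with MI-3454, which did not pass (adjusted p = 0.0873), and 0.89 ± 0.19 with the combination (adjusted p = 0.000645). In GENCODE release 29, 35.1% of its exon bases are shared with AP000944.2 on the same strand, so reads of the 2 genes may not be told apart. Its catalytic partner POLA1 passed in no comparison with DMSO in the main fits (log2 changes of 0.06, 0.06 and -0.16 in the same order). POLA1 fell with the combination without the 4 libraries highest in RN7SL1 (adjusted p = 0.0295) and without DMSO 2 (0.0202). POLD1, the catalytic subunit of polymerase delta, read 183, 241 and 202 CPM in the DMSO libraries, 214, 248 and 203 with gilteritinib, 169, 163 and 209 with MI-3454 and 139, 127 and 114 with the combination. The combination libraries were lower than all others (-0.72 ± 0.12, adjusted p = 9.62e-05), whereas gilteritinib overlapped DMSO (0.09 ± 0.12, adjusted p = 0.685). PRIM1, the catalytic primase subunit, fell with the combination (-0.52 ± 0.15, adjusted p = 0.00753). POLE, the leading-strand polymerase, POLE2 and PRIM2 passed in no comparison with DMSO in the main fits. POLE passed with gilteritinib under the replicate block (adjusted p = 0.00174) and in 1 fit of all 12 libraries (0.0445). It also passed there without the 4 libraries highest in RN7SL1 (0.0157) and without DMSO 2 (0.0249). PRIM2 fell with the combination without those 4 libraries (0.0466) and without DMSO 2 (0.0343).

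Of the 8 clamp, loader and joining genes, 3 rose with gilteritinib (6.92% of all tested genes), 0 passed with MI-3454 and 6 fell with the combination (28.4%). PCNA was at 202, 199 and 209 CPM in the DMSO libraries, 279, 286 and 255 with gilteritinib, 216, 186 and 217 with MI-3454 and 186, 164 and 155 with the combination. The gilteritinib libraries stood above all others (0.43 ± 0.10, adjusted p = 0.0121), a call lost without gilteritinib 1 (0.0653) or DMSO 1 (0.0549). With the combination PCNA lay just under DMSO (-0.27 ± 0.11, adjusted p = 0.0397), a call kept in 2 of the 6 fits without a library and as high as 0.180 without combination 3. FEN1, which trims flaps between Okazaki fragments, rose by 0.46 ± 0.10 with gilteritinib (adjusted p = 0.00814) and fell by 0.43 ± 0.12 with the combination (adjusted p = 0.00471). LIG1, which seals the fragments, rose with gilteritinib (0.48 ± 0.12, adjusted p = 0.0177, called in 2 of 6 fits without a library).

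The 5 clamp loader subunits did not pass with gilteritinib in the main fit, and 4 of them fell with the combination. With gilteritinib RFC5 rose under the replicate block (adjusted p = 0.0162). RFC3 fell with gilteritinib without the 4 libraries highest in RN7SL1 (-0.27, adjusted p = 0.0165) and without DMSO 2 (-0.30, 0.0203). RFC3 measured 64.3, 50.02 and 66.3 CPM in the DMSO libraries, 55.0, 50.9 and 52.5 with gilteritinib, 59.4, 48.5 and 44.9 with MI-3454 and 32.3, 32.9 and 37.8 with the combination. Its combination libraries lay below all others (-0.81 ± 0.13, adjusted p = 4.6e-05), and its gilteritinib libraries overlapped DMSO, of which DMSO 2 was the lowest (-0.19 ± 0.12, adjusted p = 0.319). RFC4 (-0.57 ± 0.15), RFC2 (-0.48 ± 0.12) and RFC1 (-0.37 ± 0.11) fell as well (adjusted p between 0.00217 and 0.00797), the call of RFC1 being lost with total-count scaling (0.0654). RFC5 was 0.32 ± 0.14 with gilteritinib (adjusted p = 0.149) and -0.16 ± 0.15 with the combination (adjusted p = 0.373).

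Deoxynucleotide supply was represented by 4 genes. Of these, 3 rose with gilteritinib (6.92% of all tested genes), 0 passed with MI-3454 and 3 fell with the combination (28.4%). TK1, which salvages thymidine, was at 78.8, 85.0 and 52.1 CPM in the DMSO libraries, 120.1, 136 and 108 with gilteritinib, 87.3, 63.3 and 104 with MI-3454 and 68.8, 57.1 and 51.6 with the combination. Every gilteritinib library exceeded every other library (0.75 ± 0.16, adjusted p = 0.00837), while DMSO 3 lay well under the other two DMSO libraries and the combination overlapped DMSO (-0.28 ± 0.16, adjusted p = 0.137). TK1 fell with the combination when DMSO 3 was left out (-0.46, adjusted p = 0.00579) and with no filter on low counts (-0.35, 0.0189). RRM2, the regulated subunit of ribonucleotide reductase, read 222, 170.4 and 205 CPM in the DMSO libraries, 251, 234 and 231 with gilteritinib, 237, 200.1 and 191 with MI-3454 and 118, 115 and 125 with the combination. The combination libraries were the lowest by a wide margin (-0.74 ± 0.11, adjusted p = 3.79e-05), and the gilteritinib libraries lay just above DMSO without passing (0.26 ± 0.11, adjusted p = 0.145; 0.00284 with the replicate block). TYMS, thymidylate synthase, stood at 142, 136 and 146 CPM in the DMSO libraries, 209, 206 and 177 with gilteritinib, 159.9, 132 and 144 with MI-3454 and 121, 106 and 99.2 with the combination. It rose by 0.48 ± 0.10 with gilteritinib (adjusted p = 0.00783, lost without gilteritinib 1, 0.0527) and fell by 0.37 ± 0.11 with the combination (adjusted p = 0.00648), and 46.6% of its exon bases are shared with ENOSF1 and TYMSOS on the other strand. RRM1, the large reductase subunit, rose by 0.32 ± 0.10 with gilteritinib (adjusted p = 0.0492, called in 1 of 6 fits without a library) and fell by 0.38 ± 0.10 with the combination (adjusted p = 0.0043).

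The 2 E2F genes parted in the combination. E2F2, an activating E2F factor, was at 20.3, 22.6 and 20.2 CPM in the DMSO libraries, 36.2, 39.9 and 34.4 with gilteritinib, 30.4, 27.5 and 29.6 with MI-3454 and 36.3, 26.7 and 26.6 with the combination. All treated libraries lay above all DMSO libraries, by 0.81 ± 0.12 with gilteritinib (adjusted p = 0.000617), 0.47 ± 0.13 with MI-3454 (adjusted p = 0.0244) and 0.51 ± 0.14 with the combination (adjusted p = 0.00563). Its MI-3454 call was kept without DMSO 2 or MI-3454 3 and lost without each of the other 4 libraries (up to 0.108), and the combination call was lost without combination 1, the highest of its group (0.0653). E2F1, also an activating factor, did not pass with gilteritinib (0.32 ± 0.13, adjusted p = 0.116, or 0.00593 with the replicate block) and fell with the combination (-0.51 ± 0.14, adjusted p = 0.0062). Per kb, the ratio of E2F2 to E2F1 was 0.33 to 0.39 in the DMSO libraries, 0.48 to 0.49 with gilteritinib, 0.49 to 0.55 with MI-3454 and 0.58 to 0.81 with the combination. Of the cyclin E genes, CCNE1 rose with gilteritinib (0.46 ± 0.13, adjusted p = 0.0372, called in 1 of 6 fits without a library). CCNE2 passed in no main fit against DMSO, and 37.1% of its exon bases are shared with INTS8 and AC087752.4. It rose with gilteritinib under the replicate block (adjusted p = 0.0243). With the combination CCNE2 fell when DMSO 2 was left out (-0.40, adjusted p = 0.00268). It also fell there when the library richest in RN7SL1 was dropped from each group (-0.38, adjusted p = 0.00443).

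Among the 5 remaining genes, 3 rose with gilteritinib (6.92% of all tested genes), 0 passed with MI-3454 and 2 fell with the combination (28.4%). The 2 falls in 5 genes are too few to set against that share. CLSPN, which carries the stalled-fork signal to the kinase CHK1, was at 54.0, 50.1 and 62.8 CPM in the DMSO libraries, 83.8, 89.1 and 81.9 with gilteritinib, 64.5, 60.6 and 57.6 with MI-3454 and 63.6, 60.98 and 59.5 with the combination. Gilteritinib stood above all other libraries (0.61 ± 0.11, adjusted p = 0.00248), and the combination overlapped DMSO (0.14 ± 0.11, adjusted p = 0.286). UHRF1, which guides DNA methylation onto new strands, read 198, 247 and 216 CPM in the DMSO libraries, 269.9, 345 and 252 with gilteritinib, 202, 183 and 239 with MI-3454 and 196, 175 and 170.2 with the combination. It lay above DMSO in every gilteritinib library without passing (0.39 ± 0.13, adjusted p = 0.0711; 1.92e-05 with the replicate block) and fell with the combination (-0.29 ± 0.11, adjusted p = 0.0375), a call lost without combination 2 (0.153), combination 3 (0.143) or DMSO 2 (0.0551). CHAF1B, a subunit of the histone chaperone CAF-1, rose by 0.45 ± 0.13 with gilteritinib (adjusted p = 0.0384, called in 1 of 6 fits without a library). It fell by 0.59 ± 0.16 with the combination (adjusted p = 0.00384). Its partner CHAF1A passed in neither of these main fits (log2 changes of 0.35 and -0.22). With gilteritinib CHAF1A passed under the replicate block (adjusted p = 0.000103) and with no filter on low counts (0.0359). It also passed there when DMSO 2 was left out (0.0107). Dropping the library richest in RN7SL1 from each group gave the call too (0.00272). DTL, which marks CDT1 for destruction, rose with gilteritinib (0.43 ± 0.12, adjusted p = 0.0357, called in 2 of 6 fits without a library).

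With MI-3454 alone the replication genes stood closest to DMSO. The changes of the 44 genes lay between -0.44 (MCM6) and 0.53 (POLA2), with 23 above and 21 below 0. Both calls, MCM6 and E2F2, ended with the replicate block (adjusted p 0.103 to 0.126). In the same libraries 2658 genes were called (19% of those tested).

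Against gilteritinib, the combination was lower across nearly all of the 44 genes. It was lower in 40 and higher in 0, where 30.3% of all tested genes were lower and 30.1% higher, with a median of -0.68. The same 40 had no overlap between the groups, as had 33.6% of all tested genes in that direction. The largest differences were in CDT1 (-1.21 ± 0.12), MCM2 (-1.09 ± 0.11), CDC6 (-1.09 ± 0.10), GINS2 (-1.08 ± 0.12) and CHAF1B (-1.04 ± 0.13), with adjusted p from 6.03e-07 to 1.01e-05. POLA2, E2F2, POLE2 and PRIM2 did not pass in the main fit. E2F2 was called lower without combination 1 (-0.46, adjusted p = 0.00272) and without the 4 libraries highest in RN7SL1 (-0.41, 0.000307). The replicate block (adjusted p = 0.0409) and no filter on low counts (0.00984) also called E2F2 lower. The calls of POLA1 and POLE were lost without single libraries (up to 0.230 and 0.125), and the other 38 were kept in all 6 such fits.

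Against MI-3454, the combination was lower in 24 and higher in 0 (15.1% and 14.1% of all tested genes), with a median of -0.34. RRM2 (-0.80 ± 0.11, adjusted p = 0.000265), CDT1 (-0.76 ± 0.17), CDC6 (-0.64 ± 0.12), RFC3 (-0.57 ± 0.13), MCM6 (-0.56 ± 0.10) and MCM2 (-0.49 ± 0.11) were called in all 6 fits without a library. The count was 7 without combination 2, 8 without combination 3 or MI-3454 1, 15 without combination 1, and 10 with total-count scaling. MI-3454 was lower than gilteritinib in 21 and higher in 0 (7.43% and 9.96% of all tested genes), with a median of -0.37. There MCM2 (-0.61 ± 0.13), ORC1 (-0.61 ± 0.13) and CLSPN (-0.49 ± 0.09) were called in all 6 fits, and the count was 3 without MI-3454 2, 4 without gilteritinib 1, 8 without gilteritinib 2, 11 without MI-3454 1 and 12 without gilteritinib 3.

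**Figure D4:**
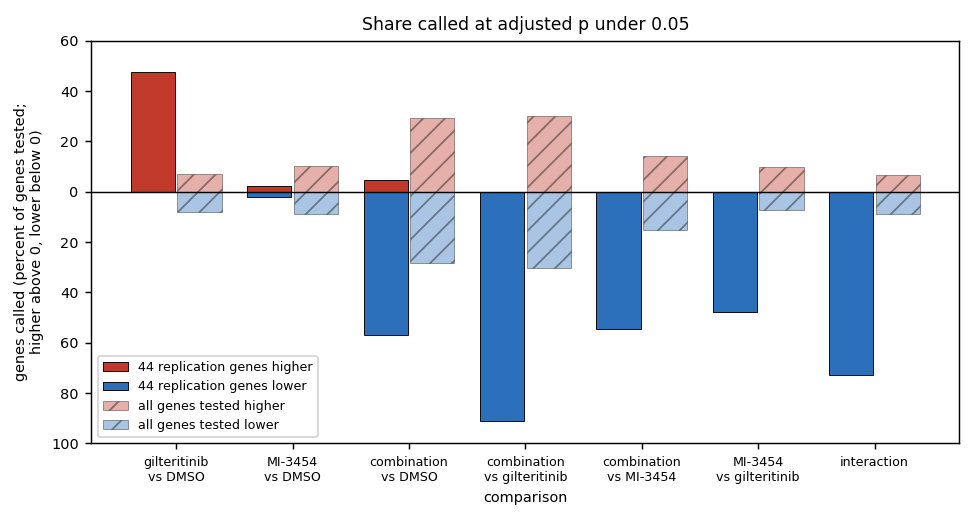
Bars give the percent called higher (up) and lower (down) at an adjusted p under 0.05, solid for the 44 replication genes and hatched for all 13972 genes tested, in each comparison. The solid bars point up for gilteritinib against DMSO (21 of 44 genes) and down where the combination is set against gilteritinib (40) or MI-3454 (24).

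The interaction term, from a fit of all 12 libraries, is the combination's log2 change minus the added changes of gilteritinib alone and MI-3454 alone. It was negative in all 44 genes, with a median of -0.68 against -0.02 over all tested genes. Of the 44, 32 passed as lower than the sum and 0 as higher, where 8.74% and 6.55% of all tested genes did. TK1 (-1.27 ± 0.26, adjusted p = 0.00469), GINS2 (-1.25 ± 0.19, adjusted p = 0.000402), MCM2 (-1.10 ± 0.17, adjusted p = 0.000548), RRM2 (-1.07 ± 0.15, adjusted p = 0.00027) and CDT1 (-0.999 ± 0.24, adjusted p = 0.0123) had the largest departures. For TK1 the agents alone gave 0.75 and 0.24, and the combination -0.28. For MCM6 they gave -0.07 and -0.44, and the combination -1.002. E2F2 was also below its sum (-0.76 ± 0.18, adjusted p = 0.00999), although it stayed above DMSO, and POLA2 did not pass (-0.48 ± 0.23, adjusted p = 0.167). Of the 32 genes, 23 were called in all 12 fits without a library, and total-count scaling left 22.

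**Figure D5:**
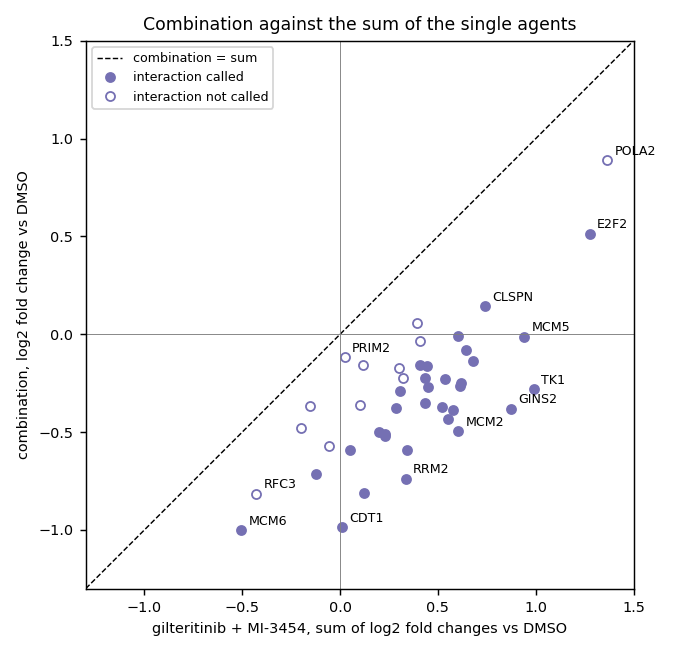
Each point is a replication gene, with the sum of its log2 changes under gilteritinib and under MI-3454 on the x axis and its log2 change under the combination on the y axis. All 44 points lie below the dashed line of equality, and filled points are the 32 genes whose interaction had an adjusted p under 0.05.

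Other measures moved with the combination. The 8 myeloid maturation genes measured (CD14, MNDA, CYBB, S100A8, S100A9, FCAR, ITGAM and CSF1R) summed to 170 to 176 raw CPM with DMSO, 162 to 183 with gilteritinib, 569 to 653 with MI-3454 and 906 to 969 with the combination, and 3, 7 and 8 of them rose against DMSO. Of all tested genes 6.92%, 10.1% and 29.2% rose in the same order. With gilteritinib the other 5 of the 8 had changes below 0, of which 0 were called, and the median of the 8 was -0.14. PECAM1 measured 154 to 192 raw CPM with DMSO, 198 to 238 with gilteritinib, 273 to 304 with MI-3454 and 504 to 530.1 with the combination, while the other genes of its list, COL1A1 and COL1A2, stayed at 3.28 or less. Reads outside annotated exons, given above, were likewise highest with the combination, and the part of these 3 measures in the replication values was not tested. Without the 4 libraries highest in RN7SL1, 32 of the 44 genes were called in the combination against DMSO, including all 27 called with those libraries. Scaling to total counts left 18 of the 25 falls and shifted the median of all genes by 0.10 on the log2 scale.

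Promoter matches and the responses can be set side by side for 40 genes. Of the 22 with an E2F match, 12 rose with gilteritinib (median log2 change 0.41, range -0.19 to 0.83), and of the 18 without one, 6 did (0.27, 0.02 to 0.75). With the combination 2 rose and 11 fell among the 22 (median -0.26), and 0 rose and 13 fell among the 18 (-0.41). E2F2 and POLA2, which rose in the combination, and MCM6, which fell furthest, all have matches. RFC3 has a match too, although the other 4 loader genes do not. No test was made of these counts.

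Other genes of replication were measured as lists beside the 44. Of 35 further replication genes tested, 6 rose and 0 fell with gilteritinib, 0 rose and 1 fell with MI-3454, and 2 rose and 12 fell with the combination, with medians of 0.18, 0.01 and -0.16. Among all tested genes 6.92% rose and 8.18% fell with gilteritinib, 10.1% and 8.95% with MI-3454, and 29.2% and 28.4% with the combination. The share of the 35 that fell with the combination was near that of all tested genes. TIMELESS, a fork protection factor, rose with gilteritinib by 0.65 ± 0.10 from 55.6, 61.7 and 59.8 CPM to 90.5, 97.5 and 90.4. The histone chaperones ASF1B (0.61 ± 0.11) and NASP (0.50 ± 0.10) and the origin firing factor TICRR (0.54 ± 0.11) rose as well. POLD2, which partners POLD1, fell by 1.16 ± 0.12 with the combination, from 108, 129 and 120.0 CPM to 59.6, 51.0 and 48.2. ASF1A (-0.93 ± 0.12), TIPIN, the partner of TIMELESS (-0.74 ± 0.19), and DBF4, which activates the origin kinase CDC7 (-0.68 ± 0.18), fell too, and ASF1A was also the 1 gene that fell with MI-3454 (-0.65 ± 0.16).

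Nucleotide genes outside the 44 split under gilteritinib and mostly fell with the combination. Of 25 tested, 4 rose and 4 fell with gilteritinib, 3 rose and 5 fell with MI-3454, and 2 rose and 14 fell with the combination. Over all tested genes these shares were 6.92% and 8.18%, 10.1% and 8.95%, and 29.2% and 28.4%. PPAT, the entry enzyme of purine synthesis, fell in each (-0.88 ± 0.15, -0.71 ± 0.19 and -1.92 ± 0.16), from 54.2, 41.2 and 63.7 CPM with DMSO to 15.0, 13.6 and 13.1 with the combination. PAICS, another purine enzyme, fell likewise (-0.49 ± 0.14, -0.58 ± 0.14 and -1.80 ± 0.13), and DHODH, of pyrimidine synthesis, fell with the combination (-1.32 ± 0.16). SAMHD1, which breaks down deoxynucleotides, read 126, 116 and 126 CPM in the DMSO libraries, 79.6, 76.1 and 82.8 with gilteritinib, 186, 199 and 179 with MI-3454 and 314, 293 and 330.4 with the combination. It fell with gilteritinib (-0.63 ± 0.09) and rose with MI-3454 and with the combination (0.62 ± 0.11 and 1.35 ± 0.11), with no overlap with DMSO in any of the 3. TK2, the mitochondrial thymidine kinase, rose with gilteritinib (0.48 ± 0.10), with MI-3454 (0.57 ± 0.11) and with the combination (1.051 ± 0.11).

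Of 31 tested genes of the E2F, RB and CDK system, 4 rose and 3 fell with gilteritinib, 3 rose and 7 fell with MI-3454, and 4 rose and 17 fell with the combination. All tested genes gave 6.92% and 8.18%, 10.1% and 8.95%, and 29.2% and 28.4% in the same order. CCND2, a D-type cyclin that acts upstream of E2F, was at 277, 241 and 294 CPM in the DMSO libraries, 85.7, 75.7 and 90.5 with gilteritinib, 145, 157 and 97.7 with MI-3454 and 27.3, 30.2 and 25.3 with the combination. Every treated group lay below DMSO without overlap (-1.69 ± 0.11, -1.02 ± 0.17 and -3.29 ± 0.12). E2F5, a repressive E2F factor, fell in all 3 as well (-1.69 ± 0.21, -1.34 ± 0.23 and -2.90 ± 0.30). CCND1 fell with MI-3454 (-2.80 ± 0.39) and had 180 counts over the DMSO libraries and 3 over the combination libraries, a ratio of 54.5 of DMSO to combination with a 95% exact interval from 18.4 to 267 that covers counting error only. The atypical repressors E2F7 (1.16 ± 0.13) and E2F8 (1.07 ± 0.14) rose with gilteritinib, CDKN1C, a CDK inhibitor, rose with MI-3454 (1.07 ± 0.31), and CDKN1A, another, fell with the combination (-1.38 ± 0.12).

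Most G2 and M phase genes rose with gilteritinib too, and in the combination their median was above 0. Of 24, 19 rose and 0 fell with gilteritinib (median 0.56), 4 rose and 0 fell with MI-3454 (0.26), and 4 rose and 3 fell with the combination (0.11). Among all tested genes 6.92% rose with gilteritinib, 10.1% with MI-3454 and 29.2% with the combination, where 28.4% fell. Against gilteritinib the combination was lower in 20 of the 24 and higher in 0 (-0.50; 30.3% of all tested genes were lower). In the interaction 20 were lower than the sum and 0 higher (-0.72; 8.74% of all tested genes were lower), as most of the 44 were. MKI67, the proliferation marker Ki-67, was at 291, 293 and 280.3 CPM in the DMSO libraries, 564, 619.8 and 521 with gilteritinib, 442, 401 and 496 with MI-3454 and 536, 475 and 489.6 with the combination. All 9 treated libraries exceeded DMSO (0.98 ± 0.11, 0.63 ± 0.12 and 0.80 ± 0.10). CDC20, a mitotic activator of protein destruction, read 47.4, 55.3 and 48.6 CPM in the DMSO libraries, 103, 110.5 and 92.0 with gilteritinib, 68.3, 58.4 and 91.3 with MI-3454 and 83.6, 70.2 and 70.2 with the combination, and it too rose in each group (1.01 ± 0.11, 0.53 ± 0.16 and 0.57 ± 0.11). CDK1, the mitotic kinase, fell with the combination (-0.54 ± 0.15). Whether the 2 lists differ in the combination was not tested.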

How the data were processed

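Total RNA of 12 MOLM-13 libraries was depleted of ribosomal RNA and made into TruSeq libraries, per the labels' protocols. Each deposited file lists raw read counts, without normalization, for 60668 genes and ends with 5 summary lines, which were kept out of totals and tests. The authors' notes on processing list cutadapt 2.1, STAR 2.7.1a, HTSeq 0.11.2, DESeq2 and GRCh38. Annotation release and strand setting: not given in the sources used here. Counts of overlapping genes are therefore uncertain. Ensembl identifiers matched symbols for 60340 genes. Exon lengths and overlaps came from GENCODE release 29.

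Counts were tested in R 4.3.3 with edgeR 4.0.16 (quasi-likelihood, TMM scaling, filterByExpr), 6 libraries per pair of groups and 12 for the interaction. Levels are TMM-scaled CPM over all 12 libraries. The SE is the log2 change divided by the square root of F. The fit was tested on simulated data. Alternatives were DESeq2 1.42.0, other scalings, no filter beyond 1 count, 1 fit of all libraries, a replicate block, and fits without single libraries or the 4 highest in RN7SL1. Same-numbered gilteritinib and DMSO libraries had positive r over the tested genes (0.14, 0.39 and 0.11). However, gilteritinib 1 was closer to DMSO 3 (0.21), and the pair at 0.39 joined the libraries highest in RN7SL1 of their groups. Pairing by number is therefore uncertain. The main fits used no pairing, and the block is an alternative. In the other comparisons r was not positive for every same-numbered pair.

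The 44 genes and all lists were chosen with earlier results of these data known. Any of the 44 could be named. Values by library were written out for MCM2 to MCM7, the 5 called genes of largest change in each comparison with DMSO and the called gene of highest CPM in each role. Up to 4 called genes of largest change were named per other list and comparison.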

Additional observations from a re-analysis of the deposited data

Results flagged for a closer look

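For 32 replication genes the combination's log2 change against DMSO differed from the sum of the changes under gilteritinib and under MI-3454, by the interaction term of edgeR's quasi-likelihood test over 12 libraries. All 32 differences were below 0. Among licensing genes they were -1.10 for MCM2, -0.72 for MCM3, -0.88 for MCM4, -0.95 for MCM5, -0.50 for MCM6, -0.79 for MCM7, -0.70 for MCM10, -0.93 for CDC6, -1.0 for CDT1 and -0.96 for ORC1. Helicase activation gave -0.64 for CDC45, -1.25 for GINS2, -0.87 for GINS3 and -0.61 for GINS4. Polymerase and primase genes gave -0.59 for POLD1 and -0.75 for PRIM1. Clamp, loader and joining genes gave -0.72 for PCNA, -0.57 for RFC5, -0.98 for FEN1 and -0.82 for LIG1. Nucleotide supply gave -0.66 for RRM1, -1.07 for RRM2, -0.90 for TYMS and -1.27 for TK1. The cyclin E and E2F genes gave -0.61 for CCNE1, -0.77 for CCNE2, -0.74 for E2F1 and -0.76 for E2F2. The remaining values were -0.59 for UHRF1, -0.94 for CHAF1B, -0.66 for DTL and -0.60 for CLSPN. Calls of MCM6, POLD1, RFC5 and UHRF1 were kept in 2 to 4 of the 12 fits that left out a library (adjusted p up to 0.116, 0.126, 0.122 and 0.134), and those of CCNE1, CCNE2, DTL, E2F1 and PRIM1 were lost in 1 to 5 of them.

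Data outside the gene counts also differed between groups. Uniquely placed reads outside annotated exons averaged 32.6% ± 4.02 (SD, n = 3) with the combination, above each of the DMSO libraries, which lay between 16.6% and 20.4%.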

How the results depend on the processing

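No called replication gene changed direction in any alternative. DESeq2's size factors and Wald test, no filter on low counts and a single fit of all libraries left every count of replication genes within 1.5 times its reported value, except that the single fit called 2 genes higher with MI-3454. Leaving out single libraries gave 10 to 26 replication genes higher and 0 to 1 lower with gilteritinib against DMSO, 0 to 1 higher and 0 to 1 lower with MI-3454, and 1 to 2 higher with the combination. The lower calls ranged from 7 to 24 for the combination against MI-3454 and from 3 to 28 for MI-3454 against gilteritinib. Over all genes the same fits called 1243 to 3985 with gilteritinib against DMSO, 2456 to 5074 for the combination against MI-3454, 1588 to 4690 for MI-3454 against gilteritinib and 1305 to 2698 for the interaction. With gilteritinib against DMSO the count over all genes rose from 2110 to 3985 without DMSO 2, so fewer samples did not always give fewer calls. The cause was not tested. Without the 4 libraries highest in RN7SL1, gilteritinib gave 1 lower call and 4250 calls over all genes, MI-3454 gave 2 lower, MI-3454 against gilteritinib gave 5133 over all genes and the interaction 3478.

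Total-count scaling gave 0 lower calls with MI-3454 and 10 for the combination against MI-3454. It shifted the median of all genes by 0.10 in the combination against DMSO, 0.12 against gilteritinib and 0.13 in the interaction, and raised the share of higher among all calls from 49.9% to 61.5% against gilteritinib, from 48.4% to 63.2% against MI-3454 and from 42.8% to 58.1% in the interaction.

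The replicate block gave 34 higher with gilteritinib against DMSO and 4928 calls over all genes. In the other comparisons the block gave 0 higher and 0 lower with MI-3454 (1678 over all genes). Lower calls were 13 for the combination against MI-3454, 8 for MI-3454 against gilteritinib, 24 for the combination against DMSO, 39 for the combination against gilteritinib and 29 in the interaction.

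Depth limits POLA2 and POLE2 most, which stood under 10 CPM in every library.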
